A study of Mus musculus with 8 samples.

Results

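10 genes of dietary iron and calcium absorption were followed in bulk RNA-seq of epithelium from the small intestine, prepared as crypts or as villi, in Gli1-Ptgs cKO mice and their controls (Ctrl). They were chosen by symbol for their role in absorption and with earlier results of these data known, and no measured value entered the rule. 6 of the 10 serve iron (Cybrd1, Slc11a2, Slc40a1, Heph, Tfrc and Fth1) and 4 serve calcium (Trpv6, S100g, Atp2b1 and Vdr). Of the 13028 genes listed for either tissue, 11554 were listed in crypts and 12701 in villi. All 10 absorption genes were listed in villi, and 9 were listed in crypts, where Trpv6 was not.

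In Gli1-Ptgs cKO mice, tamoxifen-induced Cre under the Gli1 promoter removes floxed Ptgs1 and Ptgs2, the genes of the prostaglandin-making enzymes COX1 and COX2, from mesenchymal cells that express Gli1. The sample labels give the Ctrl mice, whose genotype they call WT, as Gli1-CreERT2 with a Rosa26-tdTomato reporter, whereas a figure legend of the study describes mice with both floxed genes and no Cre. All mice had a C57BL/6 background and received tamoxifen at 100 mg/kg for 5 days, and tissue was taken 1 month after tamoxifen. Age is not given in the sources used here. Each tissue and genotype has 2 libraries by the labels, described by the study as biological replicates, but the 2 Ctrl villus columns held the same value for all 12701 genes and were counted as 1 library. The crypt comparison is therefore 2 Ctrl libraries against 2 cKO libraries, and the villus comparison is 1 against 2.

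Depth ran from 16853017 to 21121714 reads on listed genes in crypts and from 13477600 to 15751024 in villi. Values are normalized counts, that is gene counts divided by each library's size factor, which corrects for sequencing depth. The lowest mean of a listed gene was 48.4 in crypts and 8.73 in villi. A gene not listed in crypts, such as Trpv6, can therefore still be expressed there. Of the targeted genes, Ptgs1 overlapped between genotypes in crypts (365.5 and 163.8 normalized counts in Ctrl, 178.4 and 198.9 in cKO), and Ptgs2 was not listed. Because the deletion is in mesenchymal cells, these epithelial preparations do not test it. Markers separated the tissues as labelled. The 8 stem cell genes summed to between 4975 and 5654 reads per 1000000 reads on listed genes in crypts and between 181.3 and 426.6 in villi. The 10 enterocyte genes summed to between 5781 and 9292 reads per 1000000 in crypts and between 20390.1 and 27999 in villi. 1 crypt library stood apart. In cKO crypt library 1 the difference of a gene from the Ctrl mean fell with transcript length across genes (Spearman's rho -0.67 over 11546 genes, which share the libraries), against 0.33 in cKO crypt library 2, and both cKO villus libraries had the opposite trend (0.54 and 0.51). Differences of the 10 genes between genotypes are therefore also given with length corrected.

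Iron from food is taken up mainly in the duodenum. Cybrd1 reduces ferric iron at the brush border, Slc11a2 (DMT1) carries ferrous iron into the enterocyte, ferritin made of Fth1 and Ftl1 stores it, and Slc40a1 (ferroportin) exports it to the blood with the ferroxidase Heph (hephaestin). Tfrc, the transferrin receptor, takes up iron from the blood side and is typical of dividing cells. Calcium enters through the channel Trpv6, is carried across the cell by the small calcium-binding protein S100g (calbindin-D9k), and leaves through the calcium pump Atp2b1 (PMCA1). Vdr, the vitamin D receptor, is known to activate Trpv6 and S100g.

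Several iron genes are controlled after transcription by the iron-responsive element, a hairpin with a bulged C and a CAGTGN loop. When iron is scarce, iron regulatory proteins bind it. In a 5′ UTR this blocks translation, and in a 3′ UTR it protects the RNA. The hairpin was searched in the GENCODE M21 transcripts of all 10 genes as a stretch of 27 bases with 5 paired bases above the bulge and at least 4 of 5 below it, G-T pairs included. It was found 6 times, in 3 of the 10 genes, and, among the 48 other iron pathway genes with a transcript, in Ftl1 alone. These elements are shown because they separate the genes whose protein can change with iron at a constant RNA level (Fth1, Ftl1 and Slc40a1) from Tfrc, whose RNA stability changes with iron. Capitals mark the bulge and the loop, and T stands for U.
Fth1 5′ UTR: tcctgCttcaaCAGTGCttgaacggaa
Ftl1 5′ UTR: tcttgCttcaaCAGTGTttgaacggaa
Slc40a1 5′ UTR: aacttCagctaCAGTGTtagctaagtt
Tfrc 3′ UTR, from chr16:32631220: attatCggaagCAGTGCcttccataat
Tfrc 3′ UTR, from chr16:32631599: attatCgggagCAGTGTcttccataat
Tfrc 3′ UTR, from chr16:32631664: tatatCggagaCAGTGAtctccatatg
Tfrc 3′ UTR, from chr16:32631711: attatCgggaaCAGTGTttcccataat
In the GRCm38 build, which is the mm10 build the study aligned to, they lie at chr19:9982733-9982759 on the plus strand (Fth1), chr7:45459780-45459806 on the minus strand (Ftl1), chr1:45925466-45925492 on the minus strand (Slc40a1) and, for Tfrc on the plus strand, between chr16:32631220 and chr16:32631737. No match in the other 7 genes or in the other pathway genes says only that this pattern was not in the transcripts searched. Elements with other bases or pairing would be missed.

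For calcium, the 250 bases before the start site of S100g and of Trpv6 are shown. Vitamin D is known to regulate both, and they varied most between the cKO libraries of villi. The sequences are from RefSeq, build GRCm38.p6, whose promoter table held 7 of the 10 genes. Capitals mark the nuclear receptor half-site AGGTCA or, on the other strand, TGACCT.
S100g: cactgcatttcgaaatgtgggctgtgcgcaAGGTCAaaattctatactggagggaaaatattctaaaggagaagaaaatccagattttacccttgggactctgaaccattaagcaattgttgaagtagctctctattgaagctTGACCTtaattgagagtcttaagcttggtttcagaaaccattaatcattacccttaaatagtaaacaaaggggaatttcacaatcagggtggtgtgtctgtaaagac
Trpv6: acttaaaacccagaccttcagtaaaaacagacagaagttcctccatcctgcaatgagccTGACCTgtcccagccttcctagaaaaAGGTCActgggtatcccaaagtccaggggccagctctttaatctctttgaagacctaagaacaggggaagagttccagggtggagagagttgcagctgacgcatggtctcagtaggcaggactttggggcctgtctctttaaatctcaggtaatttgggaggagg
S100g lies at chrX:162964600-162964849 and Trpv6 at chr6:41636406-41636655, both on the minus strand. Each window held 2 half-sites. Over all 32851 promoters of the same length, 14% held at least 1 half-site on either strand and 1.36% held 2 or more. The windows of Vdr, Atp2b1, Tfrc, Fth1 and Cybrd1 held none. A direct pair of these half-sites spaced by 3 bases, the ideal form of a vitamin D response element, was in neither window and in 2 of all promoters (0.00609%). A match describes the letters and is not a site of binding.

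The first question was where along the crypt and villus axis the 10 genes are expressed. S100g and Fth1 were villus genes and Tfrc and Cybrd1 were crypt genes in all 7 libraries, and the other 5 genes listed in both tissues overlapped. As the 2 tissues were normalized separately, levels are reads per 1000000 reads (CPM) over the 11227 genes listed in both, with no test. S100g had 23.1 and 25.7 CPM in Ctrl crypts, 42.4 and 51.0 in cKO crypts, 357.4 in the Ctrl villi, and 235.6 and 648.3 in cKO villi. It was 14.6-fold higher in Ctrl villi than in Ctrl crypts, and its lowest villus library was 4.62-fold above its highest crypt library. Fth1 was 2.62-fold higher in Ctrl villi, but its lowest villus library was only 1.2-fold above its highest crypt library.

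Tfrc had 620.7 and 640.4 CPM in Ctrl crypts, 566.2 and 595.3 in cKO crypts, 59.0 in the Ctrl villi, and 155.2 and 103.2 in cKO villi. The lowest crypt library was 3.65-fold above the highest villus library. Cybrd1, the brush border reductase, had 15.4 and 24.5 CPM in Ctrl crypts, 10.3 and 18.8 in cKO crypts, 0.963 in the Ctrl villi, and 1.47 and 2.16 in cKO villi. It was thus the gene with the largest crypt excess, 20.7-fold in Ctrl and 8.02-fold in cKO, although its protein is placed by textbooks at the villus brush border. Only 14, 23 and 29 reads of Cybrd1 were counted in the 3 villus libraries.

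**Figure D1:**
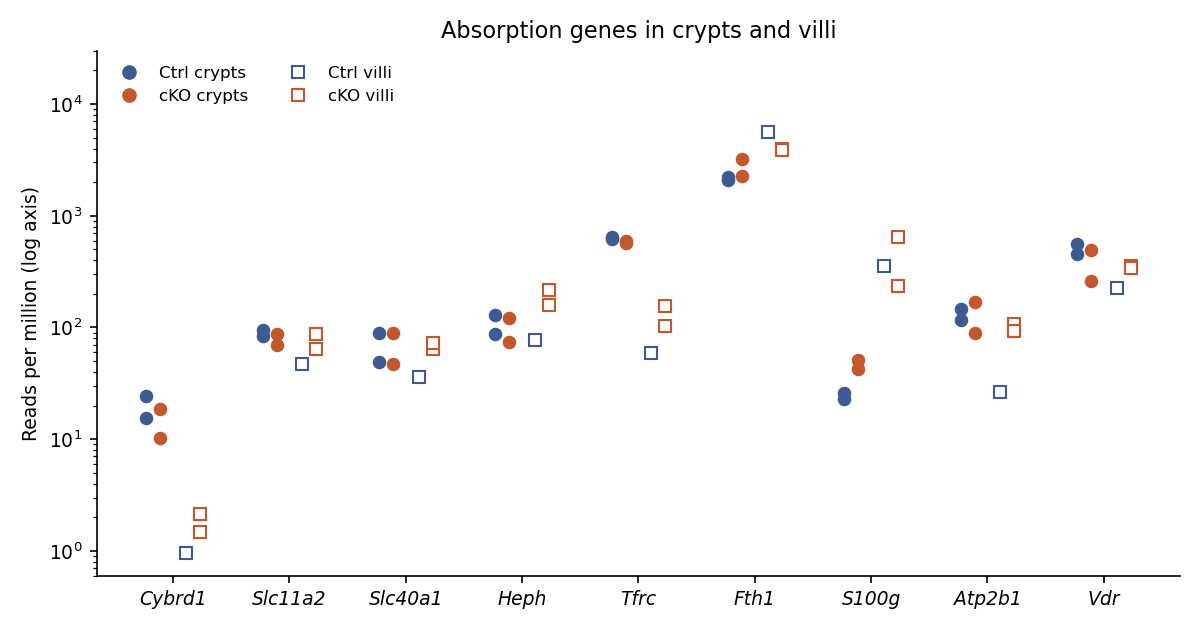
CPM (log axis) of the 9 genes listed in both tissues, for 2 Ctrl and 2 cKO crypt libraries (filled circles) and 1 Ctrl and 2 cKO villus libraries (open squares). All villus libraries of S100g and Fth1 lie above all crypt libraries, all villus libraries of Tfrc and Cybrd1 lie below, and the other genes overlap.

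These positions have to be read against all genes. 11.1% of the 11227 genes were higher in every villus library than in every crypt library and 52.3% were lower in every one, and the median log2 difference of villi from crypts was -1.18 in Ctrl and -0.64 in cKO. The members had a median of -0.93 in Ctrl and -0.05 in cKO. Atp2b1, the basolateral pump, was 4.99-fold higher in Ctrl crypts than in Ctrl villi but 1.29-fold higher in cKO crypts than in cKO villi. Slc40a1 and Slc11a2 were each 1.9-fold higher in Ctrl crypts, and 1.00-fold and 1.04-fold higher in cKO crypts than in cKO villi.

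Per kilobase of the principal transcript, which allows genes to be compared with one another, Fth1 was highest in every library, with 1389 to 2169 CPM per kilobase in crypts and 2607 to 3778 in villi. Second in villi was S100g, with 490.8 to 1351. In crypts Tfrc had 115.8 to 131.0, Vdr 59.8 to 128.7 and S100g 48.2 to 106.2, ranges that overlap, so their order is not fixed between libraries. The transporters followed. Slc11a2 had 23.2 to 31.4, Heph 15.6 to 27.2, Slc40a1 13.9 to 26.5 and Atp2b1 12.4 to 23.9 in crypts, all overlapping with the next. Cybrd1 was lowest in all libraries, with 1.93 to 4.58 in crypts and 0.18 to 0.405 in villi, among the 9 genes listed in both tissues.

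More of the pathway genes around them were lower than higher in villi, as was so over all genes. Of 39 iron pathway genes in both tissues, 6 were higher in every villus library and 18 lower. Of 31 calcium and vitamin D pathway genes 6 were higher and 12 lower. Over all genes the shares were 11.1% higher and 52.3% lower. The following were picked after their values were seen. All 4 listed Steap genes, which encode metalloreductases, were higher in every crypt library, from 4.28-fold for Steap3 to 18.5-fold for Steap4 in Ctrl. In cKO Steap4 was 4.04-fold higher. It had 19.8 and 5.64 CPM in Ctrl crypts, 9.38 and 14.7 in cKO crypts, and 10 reads in the Ctrl villi. 7 mesenchyme genes were listed in crypts and 6 in villi. They summed to 866.3 and 457.6 CPM over all listed genes in Ctrl crypts and 488.1 and 743.1 in cKO crypts. In villi they summed to 105.4 in Ctrl and 170.5 and 136.5 in cKO. The part of mesenchymal cells in the Steap differences was not tested. Cldn2, a claudin that forms paracellular cation pores, was also higher in every crypt library, 10.1-fold in Ctrl. Slc46a1, a heme and folate carrier, was 5.18-fold higher in Ctrl villi, and Anxa2, an annexin that binds the Trpv6 partner S100a10, was 4.14-fold higher.

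The second question was whether mesenchymal COX deletion changed these genes in crypts. S100g was the one gene of the 9 that passed the threshold used here, an unadjusted p under 0.01 with an absolute log2 fold change over 1, against 0.173% of all genes called higher (20 genes) and 0.00866% called lower (1 gene). With library size scaling in place of the deposited size factors the split was 18 and 4. Normalized counts of S100g were 423.6 and 487.9 in Ctrl crypts against 868.7 and 957.7 in cKO crypts, so the groups did not overlap. Ctrl averaged 455.7 ± 45.5 (SD, n = 2) and cKO averaged 913.2 ± 62.9 (SD, n = 2). On the log2(normalized count + 1) scale used for all differences here, it was 1.00 ± 0.26 (SE) higher in cKO by limma-trend, with p = 0.0066 and a Benjamini-Hochberg adjusted p of 1.00 over all genes, where an exact permutation test of 2 against 2 libraries cannot go below 0.333.

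Over all 11554 genes, limma-trend gave no gene at an adjusted p under 0.05 (0.0% called), while 73 genes (0.632%) had an unadjusted p under 0.05, edgeR called 0 and DESeq2 called 11 at an adjusted p under 0.05, none of them a member. The log2 difference of S100g lay at the threshold. It was 0.93 with library size scaling, 1.12 with scaling to enterocyte genes, and 0.90, 1.10 and 0.93 without Ctrl library 1, Ctrl library 2 and cKO library 2, and S100g passed under none of these. S100g also shares its place on the X chromosome with Ctps2, a CTP synthase on the opposite strand, with 632.5 and 520.3 normalized counts in Ctrl and 482.6 and 540.8 in cKO, and the strand setting of the counting is not given in the sources used here.

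Fth1 was the other gene with both cKO libraries above both Ctrl libraries, as were 9.73% of all genes, and no member had both below, as had 11.3% of all genes. It had 38015 and 42361 normalized counts in Ctrl and 66345 and 42476 in cKO. The log2 difference was 0.40 ± 0.39 (SE), with an adjusted p of 1.00 by limma-trend, and without cKO library 1 it was 0.08. The remaining 7 genes overlapped between genotypes, with an adjusted p of 1.00 each by limma-trend.

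Tfrc was the steadiest of these, with 11372 and 12158 normalized counts in Ctrl and 11591 and 11188 in cKO. Slc11a2 had 1737 and 1601 in Ctrl and 1436 and 1637 in cKO. Their log2 differences were -0.05 ± 0.26 (SE) and -0.12 ± 0.24 (SE), which are smaller than their errors.

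Vdr had 8244 and 10674 normalized counts in Ctrl and 5345 and 9245 in cKO, with a log2 difference of -0.42 ± 0.34 (SE). Cybrd1 had 283.0 and 464.5 in Ctrl and 210.9 and 353.1 in cKO, with a log2 difference of -0.41 ± 0.40 (SE). Both were lowest in cKO library 1, and without cKO library 2 the Vdr difference was -0.81, which did not pass.

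In 6 of the 9 genes library 2 was higher than library 1 in both genotypes, by least in S100g (1.15-fold in Ctrl and 1.10-fold in cKO). Slc40a1, the iron exporter, had 899.6 and 1693 normalized counts in Ctrl and 958.9 and 1678 in cKO, so the libraries with the same number almost coincided while those of 1 genotype differed 1.88-fold and 1.75-fold. Heph, its ferroxidase, had a like order, with 1603 and 2449 in Ctrl and 1517 and 2299.7 in cKO. Atp2b1 had 2157 and 2768 in Ctrl and 1810 and 3197 in cKO. Cybrd1 and Vdr, given above, were the others. The summed level of the 10 enterocyte genes had the same order, with 118042 and 176672 normalized counts in Ctrl and 118567 and 150491 in cKO, as had 6 T cell genes, with 913.6 and 2547 in Ctrl and 1148 and 2429 in cKO. Their part in these differences was not tested. In bulk samples, fewer cells of a type and less RNA per cell cannot be told apart.

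**Figure D2:**
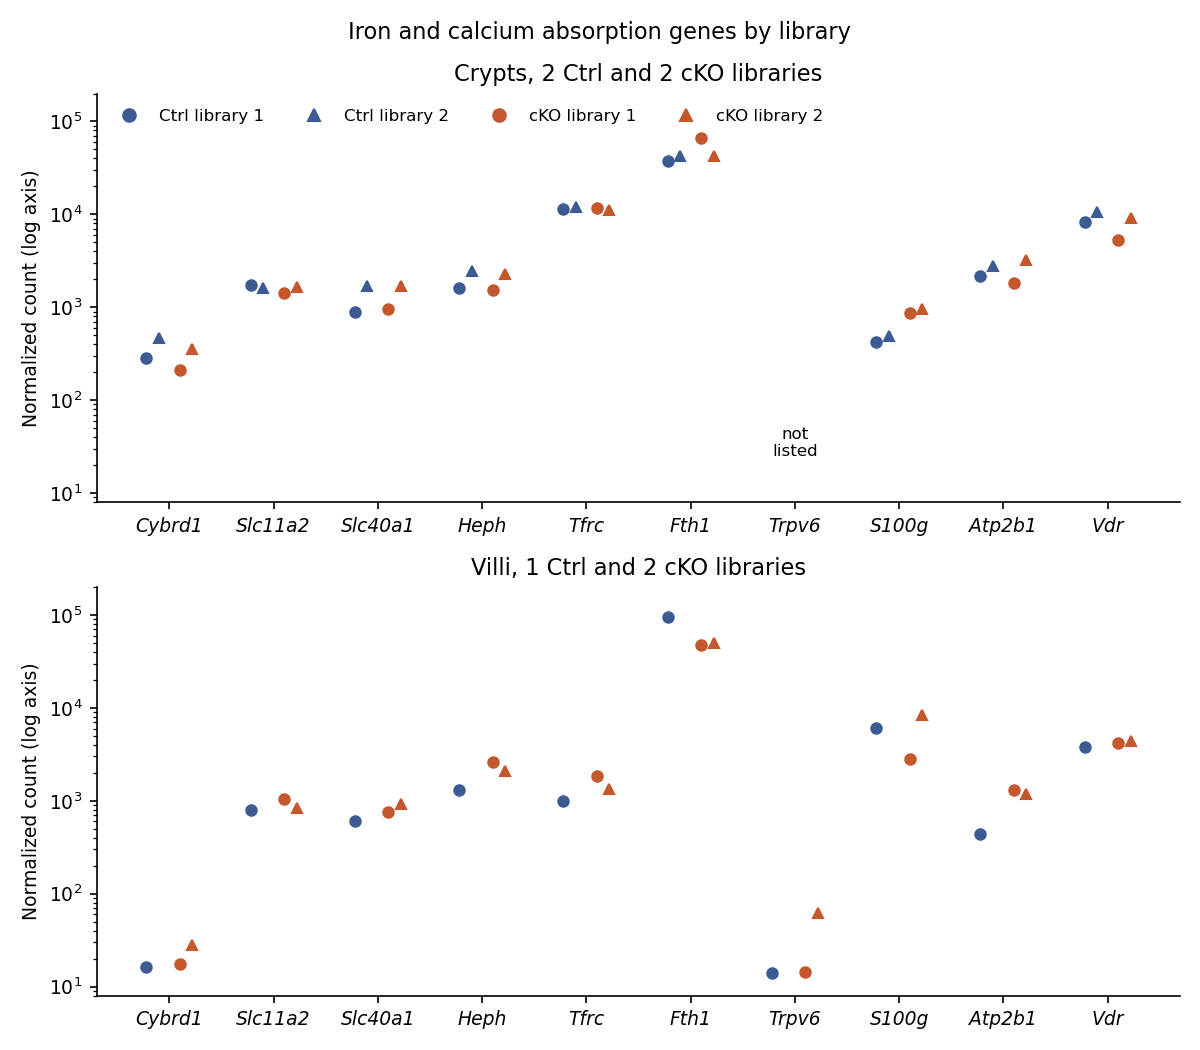
Normalized counts (log axis) of the 10 genes in each crypt library (top) and villus library (bottom), Ctrl in blue and cKO in orange, circles for libraries numbered 1 and triangles for those numbered 2. In crypts the cKO libraries of S100g (868.7 and 957.7) lie above the Ctrl libraries, and in villi Atp2b1 is higher and Fth1 lower in both cKO libraries than in the single Ctrl library.

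Other markers differed between genotypes in the crypts, where 9.73% of all genes had both cKO libraries above both Ctrl libraries. All 6 listed genes of a stomach list of 7 were higher in both cKO libraries, summing to 24887 and 32542 normalized counts in Ctrl and 107835 and 65000.3 in cKO. 5 of 11 duodenal genes were also higher in both cKO libraries, summing to 30606 and 38674 in Ctrl and 46484 and 38590.3 in cKO, so that sum overlapped. The part of either in the S100g difference was not tested. Scaled to the summed enterocyte genes, S100g stayed higher in both cKO libraries, with 3.59 and 2.76 per 1000 enterocyte counts in Ctrl and 7.33 and 6.36 in cKO, and Cybrd1 became lower in both, with 2.40 and 2.63 in Ctrl and 1.78 and 2.35 in cKO.

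In villi the question was the same, but with 1 Ctrl library there is no replicate check on Ctrl, and calls rest on the values, not on a test. 8 of the 10 genes were higher in both cKO libraries than in Ctrl and 1 was lower, where 43.7% of all genes were higher in both and 44.2% lower in both. Only Atp2b1 was at least 2-fold from Ctrl in both cKO libraries, where 10.6% of all genes were at least 2-fold higher in both and 6.4% at least 2-fold lower. A limma-trend fit of 1 Ctrl against 2 cKO libraries, whose error comes from the cKO libraries alone, put 34.8% of all genes and 3 of the 10 members at an adjusted p under 0.05, and nothing is read from it. The median log2 difference of the 10 genes was 0.45, against -0.01 over all genes. With length corrected, as described below, the median of the 10 genes was 0.32. Vdr was then lower in both cKO libraries, and the cKO libraries of Cybrd1 lay on both sides of Ctrl.

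Atp2b1, which pumps calcium out of the enterocyte, had 444.8 normalized counts in Ctrl and 1291 and 1194 in cKO, a log2 difference of 1.48. Fth1, the iron store, went the other way, with 95040.3 in Ctrl and 47972 and 50507 in cKO, a log2 difference of -0.95. In both genes the 2 cKO libraries lay close together, and the gap to the Ctrl library was many times the gap between them.

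The exporter pair and the receptors were higher by less. Heph had 1312 normalized counts in Ctrl and 2622 and 2071 in cKO, a log2 difference of 0.83. With library size scaling, which shifted the median of all genes by 0.43, and with scaling to enterocyte genes, which shifted it by 0.26, Heph was at least 2-fold higher in both cKO libraries as well. Slc40a1 had 610.5 in Ctrl and 765.3 and 934.0 in cKO. Tfrc had 993.9 in Ctrl and 1862 and 1339 in cKO, so the cKO libraries differed more from each other than the lower one did from Ctrl. Slc11a2 had 792.3 in Ctrl and 1046 and 840.3 in cKO, and Vdr had 3794 in Ctrl and 4235 and 4419 in cKO. Both differences were small, with log2 values of 0.24 and 0.19.

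Trpv6 and S100g varied most between the 2 cKO villus libraries. S100g had 6018 normalized counts in Ctrl and 2827 and 8406 in cKO, on both sides of Ctrl and 2.97-fold apart. Trpv6 had 12 reads in Ctrl and 19 and 65 reads in cKO, or 13.9, 14.5 and 62.8 normalized counts. The exact 95% Poisson intervals, which cover counting error only, were 7.18 to 24.3, 8.75 to 22.7 and 48.5 to 80.0, so cKO library 2 stood apart from the other 2 libraries, which overlapped. Cybrd1 was also highest in cKO library 2, with 16.2 normalized counts in Ctrl and 17.6 and 28.0 in cKO, but its Poisson intervals overlapped. The other 7 genes differed between the cKO libraries by 0.719-fold to 1.22-fold, library 2 over library 1.

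Markers of other cells also differed from the single Ctrl library in villi. There 43.7% of all genes were higher in both cKO libraries and 44.2% lower. All 6 listed genes of the macrophage list of 7 were lower in both cKO libraries, summing to 2238 normalized counts in Ctrl and 590.2 and 1054 in cKO, and so were 5 of 6 B and plasma cell genes, summing to 6480.0 in Ctrl and 814.3 and 1416 in cKO. Macrophages also express Fth1, Ftl1, Hmox1 and Slc40a1, and their part in the Fth1 difference was not tested. 6 of 8 stem cell genes were higher in both cKO libraries, summing to 3064 in Ctrl and 5138 and 4180.2 in cKO, and the part of crypt cells in the higher Tfrc was not tested. Of the regional lists, 8 of 11 duodenal genes were lower in both cKO libraries, summing to 229375 in Ctrl and 173221 and 154308 in cKO, as were 6 of 9 ileal genes, and all 5 listed stomach genes were higher, summing to 74.1 in Ctrl and 368.5 and 163.2 in cKO. The part of these in the member differences was not tested. The enterocyte genes summed to 359352 in Ctrl and 337187 and 265428 in cKO.

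Transcript length moved with every one of these comparisons. In crypts, genes with a principal transcript of at most 1240 bases (the shortest 10%) had a median log2 difference from the Ctrl mean of 0.85 in cKO library 1 and -0.16 in cKO library 2, and those from 6506 bases (the longest 10%) had -0.65 and 0.10. In villi the shortest 10%, up to 1135 bases, had -0.83 and -0.74, and the longest 10%, from 6273 bases, had 0.90 and 0.81. S100g, at 480 bases, is among the shortest transcripts, Fth1 has principal transcripts of 929 and 1494 bases, and Atp2b1, at 7130 bases, is among the longest. S100g in crypts and Fth1 and Atp2b1 in villi, which were among the genes furthest from Ctrl, thus lay toward the ends of the length range, and Trpv6 did not.

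**Figure D3:**
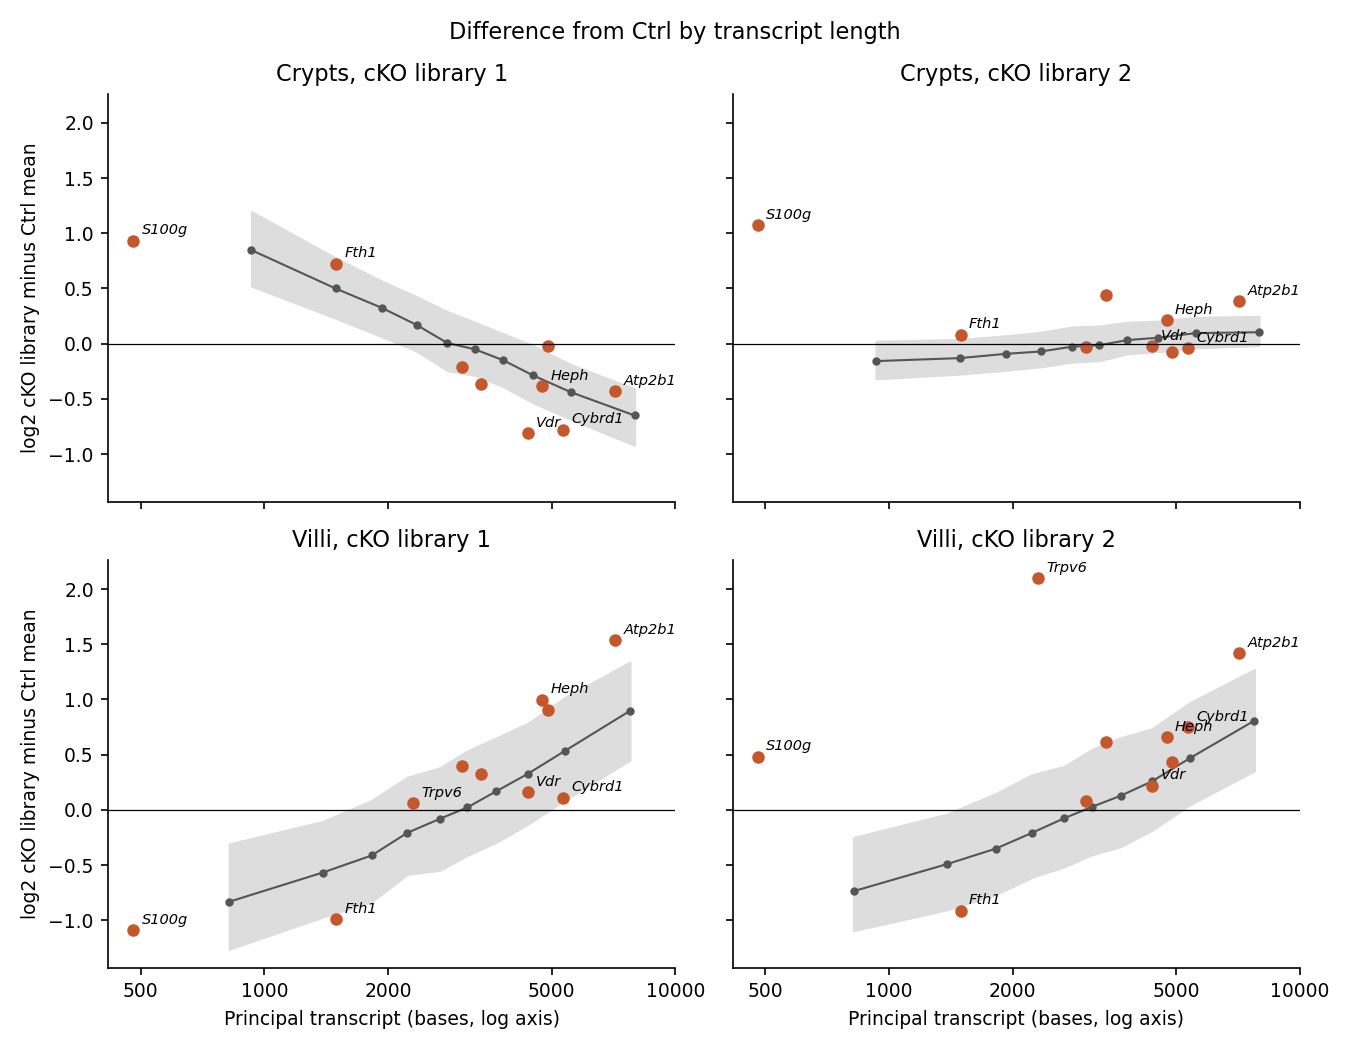
Log2 difference of each cKO library from the Ctrl mean against the principal transcript length (log axis). Grey points and line are the medians of all genes in 10 groups by length, the band spans their quartiles, and orange points are the absorption genes. S100g and Fth1 rise with the other short genes in cKO crypt library 1, but S100g lies at 1.07 in cKO crypt library 2, where short genes lie slightly below 0.

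For S100g in crypts the 2 cKO libraries differed in this respect. In cKO library 1 it was 0.93 above the Ctrl mean on the log2 scale, less than the median of 1.45 over the 55 crypt genes of at most 480 bases. In cKO library 2 it was 1.07 above, where the same genes had a median of -0.18. After subtracting a lowess curve over length from each library, S100g differed by -0.39 in cKO library 1 and 1.27 in cKO library 2, the mean difference was 0.44 and did not pass in limma-trend, and the groups overlapped. Of the other crypt genes, Fth1 had 0.21 after the correction, Atp2b1 0.21, Tfrc 0.09, Slc40a1 0.07, Heph 0.04, Slc11a2 -0.11, Cybrd1 -0.25 and Vdr -0.32, none of which passed. Atp2b1, which overlapped as deposited, then had both cKO libraries above both Ctrl libraries, by 0.15 and 0.27 over the Ctrl mean, and Atp2b1, Tfrc and Heph changed sign.

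In villi, Atp2b1 kept a length-corrected log2 difference of 0.74, with 0.76 and 0.72 in the 2 libraries, and no longer reached 2-fold. Fth1 kept -0.48, or -0.33 when its shorter principal transcript was used. Heph had 0.45, and Vdr and Cybrd1 changed sign to -0.11 and -0.05. Trpv6, of middle length at 2304 bases, was hardly touched, with 0.23 in cKO library 1 and 2.26 in cKO library 2. S100g had -0.15 and 1.30, so cKO library 2 again stood above cKO library 1, and its mean difference turned from -0.30 to 0.57.

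**Figure D4:**
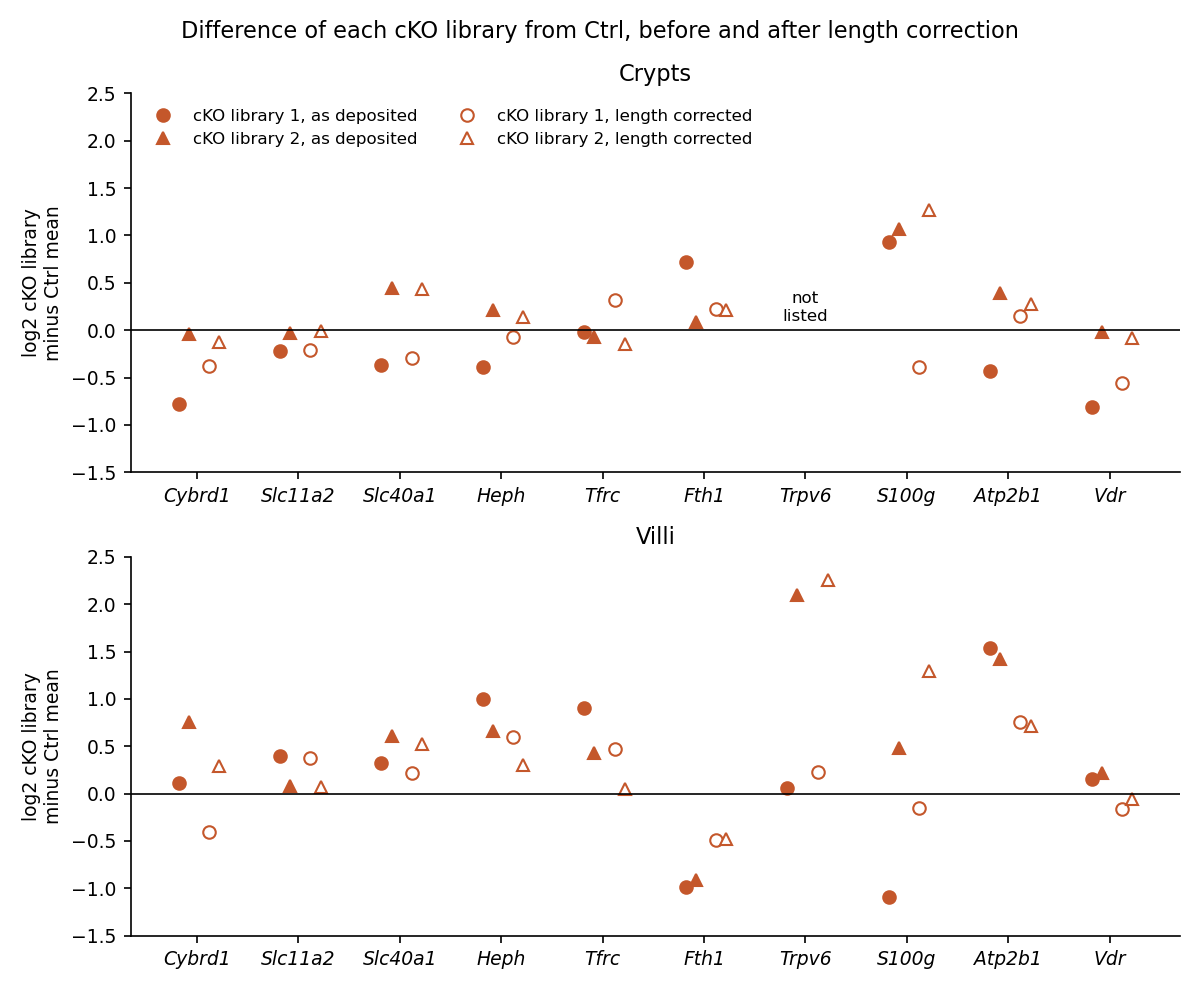
Log2 difference of each cKO library from the Ctrl mean for the 10 genes in crypts (top) and villi (bottom), as deposited (filled) and after the length correction (open), circles for library 1 and triangles for library 2. The crypt difference of S100g splits to -0.39 and 1.27 after the correction, and the villus difference of Atp2b1 shrinks to 0.76 and 0.72.

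The wider pathways were followed as 2 lists. Of 50 iron pathway genes, 41 were listed in each tissue. In crypts none was called, with limma-trend, edgeR and DESeq2 p-values all over 0.05. Both cKO libraries were above Ctrl in 2 genes and below in 3, against 9.73% and 11.3% of all genes. Among genes with a mean of at least 100 normalized counts, the largest higher values were those of Ftl1, the ferritin light chain, with 11721 and 11856 normalized counts in Ctrl and 25060.0 and 12372 in cKO (log2 difference 0.58), Bola2, a cytosolic iron chaperone (0.56), and Egln2, an oxygen sensor (0.40). The largest lower values were those of Epas1, the HIF-2 subunit that drives duodenal iron uptake genes (-0.50), Hfe, an upstream regulator of hepcidin (-0.49), and Gdf15, a stress cytokine (-0.49). In cKO library 1 both ferritin subunits had their highest crypt value.

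In villi 6 of the 41 iron genes were at least 2-fold from Ctrl in both cKO libraries, 1 higher and 5 lower, where 10.6% of all genes were higher and 6.4% lower by that much. Ftl1 had 44702 normalized counts in Ctrl and 15921 and 21559.9 in cKO, a log2 difference of -1.27, so both ferritin chains were lower. Hmox1, which frees iron from heme, had 118.2 in Ctrl and 46.6 and 51.2 in cKO, and Slc48a1, a heme transporter, had 205.0 in Ctrl and 98.6 and 85.0 in cKO. Bola2 had a log2 difference of -1.08. Steap4, a metalloreductase, was the higher one, with 11.6 in Ctrl and 35.9 and 38.6 in cKO. These rest on 10 reads in Ctrl and 47 and 40 in cKO. After the length correction the log2 differences were -0.60 for Ftl1, -0.82 for Hmox1, -1.06 for Slc48a1, -0.52 for Bola2 and 1.56 for Steap4. Over the list, 15 genes were higher in both cKO libraries and 22 lower (43.7% and 44.2% of all genes), with a median of -0.25.

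Of 42 calcium and vitamin D pathway genes, 31 were listed in crypts and 32 in villi. In crypts none was called, with all p-values over 0.05. Both cKO libraries were above Ctrl in 2 genes and below in 5, against 9.73% and 11.3% of all genes. Among genes with a mean of at least 100 normalized counts, the largest higher values were those of Rxrb, a partner of Vdr (0.46), S100a10 (0.40) and Fkbp4, an immunophilin (0.34), and the largest lower ones those of Ncor1, a co-repressor (-0.40), Slc20a1, a phosphate transporter (-0.32), and Atp2a2, the calcium pump of the endoplasmic reticulum (-0.31).

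In villi 6 of the 32 genes were at least 2-fold higher in both cKO libraries and none was at least 2-fold lower, against the same 10.6% and 6.4% of all genes. Trpm7, a divalent cation channel, had 151.7 normalized counts in Ctrl and 641.5 and 494.5 in cKO. Its relative Trpm6, a magnesium channel, had 10.4 in Ctrl and 34.4 and 50.2 in cKO, from only 9, 45 and 52 reads. Cyp3a11, which also breaks down vitamin D, had 2969 in Ctrl and 7111 and 11779 in cKO. The co-regulators Med1 and Ncor1 had log2 differences of 1.12 and 1.06. The sixth gene was Atp2b4, a further plasma membrane calcium pump, with 25.5 in Ctrl and 53.5 and 52.2 in cKO. With the length correction, Cyp3a11 kept 1.78, Trpm6 1.24 and Trpm7 1.15, whereas Med1, Ncor1 and Atp2b4 had 0.55, 0.13 and -0.12. Over the list, 16 genes were higher in both cKO libraries and 15 lower, with a median of 0.11, against 43.7% and 44.2% of all genes.

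Across the 7 libraries, the gene whose deviations from Ctrl were most like those of Fth1 was Ppp1r11, with a mean absolute log2 difference of 0.03, and for Atp2b1 it was Ttc37, at 0.06. Slc40a1 was nearest to Lrat, which stores retinol, at 0.06, and Tfrc to Klhl21 at 0.04. S100g had no close neighbour, the nearest being Ppm1m at 0.16. This likeness is a description.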

How the data were processed

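RNA of crypt and villus epithelium was sequenced on Illumina instruments in paired-end mode. The authors aligned reads to mm10 with STAR and deposited, per tissue, a signal in each library that is the gene count divided by a DESeq2 size factor; the counting program, strand setting and annotation are not given in the sources used here. The tables also hold the authors' own log2 fold changes, test statistic (a score) and p-values, which were not used. All deposited values came out as whole reads within a tolerance of 0.01. Genes with a mean of at least 1 normalized count were tested in crypts by limma-trend in R 4.3.3 (limma 3.58.1) after a log2(normalized count + 1) transform, 2 Ctrl against 2 cKO libraries, with Benjamini-Hochberg adjustment; an exact permutation test of 2 against 2 cannot give a two-sided p below 0.333. Calls were an unadjusted p under 0.01 with an absolute log2 fold change over 1, or an adjusted p under 0.05. Villi had no test beyond an alternative fit of 1 against 2. Alternatives were edgeR 4.0.16 and DESeq2 1.42.0 on recovered reads, other filters, pseudocounts and scalings, a replicate block, each library left out, and a lowess length correction (span 0.3) over GENCODE M21 principal transcripts. The members and lists were chosen with earlier results of these data known. Pathway genes were named if called, up to 5 per direction, tissue and list, and in crypts as the 3 with the largest difference per direction at a mean of at least 100; for likeness, the 2 nearest genes were found. Kits for RNA and libraries differ between labels and methods. P-values set the difference between genotypes against the spread between these libraries, which limma-trend moderates over all genes. 1 pathway gene that met this rule is not reported here.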

Additional observations from a re-analysis of the deposited data

Results flagged for a closer look

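In 5 genes, among the members and the pathway genes named by the rule, all cKO libraries of the crypts moved away from Ctrl in a direction opposite to that of all cKO libraries of the villi. Whether the tissues differed was not tested for any of them. The share of all genes with such opposite directions was not computed. In crypts 9.73% of all genes had both cKO libraries above both Ctrl libraries and 11.3% had both below. In villi 43.7% had both above Ctrl and 44.2% both below. Pathway genes were named by the size of their differences, so the count is not one of unselected genes. Fth1, the ferritin heavy chain, had a log2 difference of 0.40 in crypts and -0.95 in villi, and Ftl1, the light chain, had 0.58 and -1.27. In crypts, cKO library 2 of Fth1 (42476 normalized counts) was close to Ctrl library 2 (42361). Fkbp4 had 0.34 in crypts and -0.97 in villi. Slc20a1 had -0.32 in crypts and 1.00 in villi, and Atp2a2 had -0.31 and 0.57. The length trends also ran in opposite directions in cKO crypt library 1 and the cKO villi. With length corrected the values in crypts and villi were 0.21 and -0.48 for Fth1, 0.25 and -0.60 for Ftl1, 0.27 and -0.78 for Fkbp4, -0.29 and 0.92 for Slc20a1, and -0.21 and 0.24 for Atp2a2.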

How the results depend on the processing

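Crypt genes called higher numbered 20, but 60 with DESeq2, 63 with the replicate block and 15 to 593 when 1 library was left out, the 593 without cKO library 2. The 1 gene called lower became 5 with DESeq2, 3 with edgeR, 4 with the length correction over either the longest or, chosen after seeing the data, the shortest principal transcript, 5 with the length correction and the replicate block, 15 with the replicate block, 4 with library size scaling, 2 with scaling to enterocyte genes, also chosen after seeing the data, and 3 to 288 with 1 library left out. At an adjusted p under 0.05 the count was 0, but 11 with DESeq2, 34 with the replicate block and 0 to 1987 with 1 library left out, the 1987 without cKO library 2 and 4 without Ctrl library 2. S100g, the 1 crypt member called, gave a count of 0 under both length corrections, the length correction with the block, library size scaling and scaling to enterocyte genes, and 0 to 1 with 1 library left out, 0 in all but the fit without cKO library 1. In villi the 1 member called, Atp2b1, gave 0 under both length corrections, whereas 2 members were called with either scaling and 2 to 2 with 1 cKO library left out. Without cKO library 2, 4 pathway genes passed in crypts, Ftl1 (1.09), Bola2 (1.68), Epas1 (-1.14) and Ncor1 (-1.05). Among the members and pathway genes named by the rule, no called difference changed sign. The called difference of Atp2b4 in villi, which was not among the 5 named, did. Uncalled differences also did, among them in villi Vdr, Cybrd1 and S100g with length corrected, and S100g also without cKO library 1. In crypts Atp2b1, Tfrc and Heph did with length corrected. Heph and Atp2b1 also did without cKO library 1, as did Bola2, S100a10, Egln2, Epas1 and Ncor1. Slc40a1 and Gdf15 did in crypts without cKO library 2. Atp2b4 in villi, at least 2-fold higher as deposited, had -0.12 with length corrected and 0.15 over the shortest principal transcript. The causes were not tested. Same-numbered crypt libraries deviated together with a correlation of 0.247 over genes, but share only a number. With the replicate block S100g was still called by its unadjusted p, and its adjusted p was 0.32 by limma-trend. No member or named pathway gene changed its call with the block. Trpv6 and Cybrd1 in villi rest on 12 to 65 reads a library, and the called pathway genes Steap4 and Trpm6 on 9 to 52.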
